A study of Homo sapiens with 6 samples.

Results

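Integrins are the receptors that hold cells to the extracellular matrix, and focal adhesions are the plaques where their tails are tied to actin. From the 28181 genes listed for every library, 42 genes were taken by symbol: 12 integrin alpha subunits, 8 beta subunits, and 22 adaptors, linkers, scaffolds and kinases of focal adhesions. All 42 were found in the files, and 41 were tested, since their mean over the libraries reached 1 normalized count. *ITGB6*, a partner of the alpha v chain in epithelia, was the exception, with 3.9, 0 and 0 normalized counts in the control libraries and 1.76, 0 and 0 in the others.

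RNA sequencing was made on UE7T-9, a mesenchymal stem cell line from human bone marrow that *hTERT* and the papillomavirus gene *E7* keep dividing. UE7T-9 SHC4 (n = 3) carried *SHC4*, a Shc family adaptor that binds activated receptor tyrosine kinases, from a lentivirus with a CMV promoter, and UE7T-9 Cont (n = 3) carried GFP from the matching vector and is labelled nontarget and WT. Both were grown in DMEM and selected with puromycin, the SHC4 cells are described as clones, and nothing says how many clones or infections the 3 libraries of a group stand for. The comparison of the groups asks whether the RNA of the adhesion machinery differs when *SHC4* is overexpressed, in a study of how these cells enter decellularized bone.

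An integrin is a pair of one alpha and one beta chain. The alpha chain largely sets which ligand is bound: alpha 1, 2, 10 and 11 bind collagens, alpha 3, 6 and 7 bind laminins, and alpha 5, 8 and v bind proteins with the RGD motif such as fibronectin, vitronectin and nephronectin. Talin and kindlin bind the beta tail and switch the receptor on. Vinculin, alpha-actinin, filamin and tensin join it to actin, the complex of ILK, PINCH and parvin holds the plaque together, and FAK, SRC, p130Cas and paxillin carry the signal inward.

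The libraries held 18144993 to 27721397 reads, so that 3 reads, the floor used here for detection, were worth 2.50 to 3.53 normalized counts. A normalized count is the number of reads on a gene divided by 1 size factor per library. *SHC4* itself had 56.5, 157 and 130 normalized counts in the controls and 134870, 119166 and 155006 in UE7T-9 SHC4 (log2 fold change 10.32, SE 0.323, limma adjusted p = 2.09e-06). Of the mesenchymal markers 11 of 11 had a mean of at least 100 normalized counts, whereas the summed level of the 5 leukocyte markers listed was 147 to 165 in the controls and 124 to 158 in UE7T-9 SHC4. Correlations between libraries ran from 0.962 to 0.980, and UE7T-9 Cont replicate 1 lay nearer to all 3 SHC4 libraries (0.9745, 0.9692 and 0.9684) than to the other controls (0.9668 and 0.9622).

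*ITGA8* was the member that limma called. Of the 41 genes tested, it alone passed an adjusted p of 0.05 with a log2 fold change beyond 1, a rule that called 0.0608% of all genes tested: 12 of 23040 (0.0521%) were higher and 2 (0.00868%) lower. The other 40 had limma adjusted p-values of 0.111 or more. *ITGA2* and *ITGB3* were lower at a DESeq2 adjusted p under 0.05 (0.0402 and 0.00216, background 2.08%). Their edgeR adjusted p-values were 0.219 and 0.125. Among the 41, 25 had a log2 fold change above 0 (49.7% of all genes tested did) and 16 below, with a median of 0.16 against -0.004 over all genes tested. At an unadjusted p under 0.05, limma had 12 of the 41 (29.3%), against 14.4% of all genes: 8 were higher in UE7T-9 SHC4 (background 7.47%) and 4 lower (background 6.96%). The 8 higher include *ITGB7*, with at most 6.99 normalized counts in any library. The groups did not overlap for 3 members that were higher (background 9.13%) and 4 that were lower (background 10.2%), 17.1% in all, against a background of 19.3%.

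**Figure D1:**
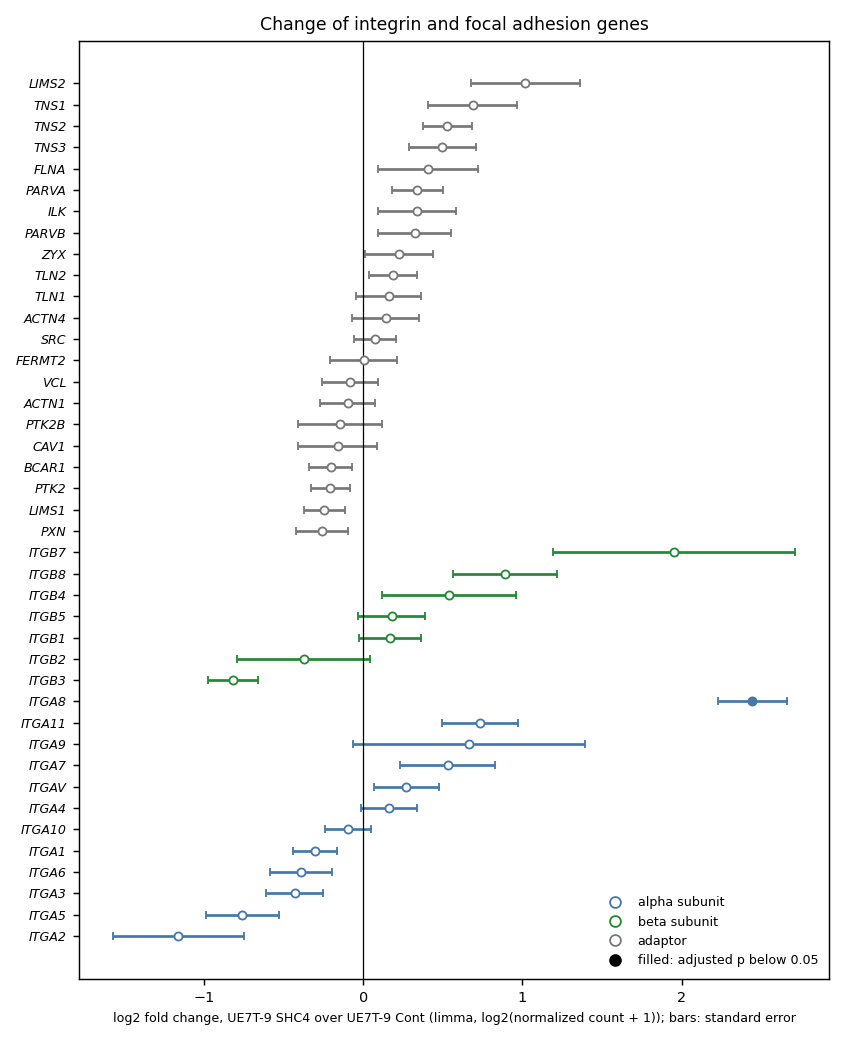
Log2 fold change of the 41 members tested, UE7T-9 SHC4 over UE7T-9 Cont, from limma on log2(normalized count + 1), with bars for 1 standard error. Points are coloured by class and ordered by value within it, and the filled point, ITGA8 at 2.45, is the member with an adjusted p below 0.05.

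*ITGA8* encodes the alpha 8 chain, which pairs with beta 1 and binds nephronectin, fibronectin and other RGD ligands, and which is known from kidney mesenchyme, smooth muscle and stromal cells. The gene (ENSG00000077943) lies on the minus strand at chr10:15513949-15720125 of GRCh38, and no other gene's exons overlap its own in GENCODE 29. The controls had 215, 300.2 and 192 normalized counts, and the SHC4 libraries 956, 1413 and 1499.9. The lowest SHC4 library stood above the highest control. The mean was 236 ± 57.0 (SD, n = 3) against 1289.5 ± 292 (SD, n = 3), a 5.47-fold ratio, and the limma log2 fold change was 2.45 (SE 0.218, adjusted p = 0.0047). DESeq2 and edgeR on the reads recovered from the same values gave adjusted p-values of 3.33e-19 and 0.0162. The call was lost without UE7T-9 SHC4 replicate 2 (limma adjusted p = 0.0723) or replicate 3 (0.089), with log2 fold changes of 2.37 and 2.32.

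The collagen receptors showed values on both sides. *ITGA2*, the alpha 2 chain of the main collagen I receptor of epithelia and platelets, had 882, 2781 and 2226 normalized counts in the controls and 536, 772 and 1176 in UE7T-9 SHC4. UE7T-9 Cont replicate 1 made the ranges overlap, since it lay below the highest SHC4 library. The log2 fold change was -1.16 (SE 0.411), with a limma adjusted p of 0.261, a DESeq2 adjusted p of 0.0402 and an edgeR adjusted p of 0.219. Without UE7T-9 Cont replicate 1 it was -1.66, with a limma adjusted p of 0.0117. That was the strong end of the fits with 1 library left out, which ran from -1.66 to -0.83.

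*ITGA11*, the alpha 11 chain that mesenchymal cells use on fibrillar collagen, had 6915, 6548 and 4244 normalized counts in the controls and 7179, 11446 and 10790.1 in UE7T-9 SHC4. Every SHC4 library was above every control, although UE7T-9 SHC4 replicate 1 was close to the first 2 controls. The log2 fold change was 0.74 (SE 0.238, limma adjusted p = 0.225, DESeq2 adjusted p = 0.0662). The other collagen-binding chains, *ITGA1* and *ITGA10*, had log2 fold changes of -0.30 (SE 0.139) and -0.10 (SE 0.147).

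The promoter windows of *ITGA8* and *ITGA2* are shown because these chains had the highest and the lowest log2 fold change among the alpha subunits. RefSeq (GRCh38.p14) gives each as the 250 bases before a transcription start, and the printed part is what lies outside the GENCODE gene, read in the direction of transcription, with each GGGCGG (the core SP1 motif, searched on both strands) in capitals.
ITGA8, minus strand, chr10:15720126-15720172: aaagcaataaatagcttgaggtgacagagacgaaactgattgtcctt
ITGA2, plus strand, chr5:52989102-52989325: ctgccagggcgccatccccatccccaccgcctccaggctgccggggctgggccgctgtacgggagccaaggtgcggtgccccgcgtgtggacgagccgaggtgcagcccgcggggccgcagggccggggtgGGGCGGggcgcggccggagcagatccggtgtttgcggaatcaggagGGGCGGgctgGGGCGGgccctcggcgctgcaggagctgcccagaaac
The full windows were 68% and 76.4% G or C, against a mean of 57.2% over 35116 promoters. Each held 4 matches to GGGCGG. In *ITGA8* they were at 136, 22, 18 and 14 bases before the start, all outside the printed stretch. In *ITGA2* they were at 119, 73, 63 and 9, and the match at 9 lies outside the printed stretch. This motif was in 42.6% of all promoters and in 52.4% of the 63 promoters of the 32 members that have an entry. TTCNNNGAA, the motif that STAT factors bind, was in neither window, in 6.57% of all promoters and in 6.35% of those of the members. A match says only that these letters are present.

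Of the laminin receptors, *ITGA3*, the alpha 3 chain of the laminin-332 and laminin-511 receptor, had 17740.2, 21534 and 23962 normalized counts in the controls and 16639, 14449 and 15525 in UE7T-9 SHC4. No overlap was seen, yet the gap between the lowest control and the highest SHC4 library was narrow. The log2 fold change was -0.43 (SE 0.18, limma adjusted p = 0.32). *ITGA6*, the alpha 6 chain of laminin receptors and hemidesmosomes, had 1038, 1665 and 1793 against 1143, 1055 and 1135 normalized counts, so that UE7T-9 Cont replicate 1 lay just below the SHC4 libraries and the other 2 controls well above them. *ITGA7*, the muscle laminin receptor, had a log2 fold change of 0.53 (SE 0.297) with overlapping groups.

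*ITGA5*, the alpha 5 chain of the classical fibronectin receptor, had 19411, 16197 and 20601 normalized counts in the controls, and 15468, 8817 and 9758 were measured in the SHC4 libraries. All SHC4 libraries lay below all controls, and SHC4 replicate 1 lay close to the lowest control. The log2 fold change was -0.76 (SE 0.23), with a limma adjusted p of 0.206 and a DESeq2 adjusted p of 0.0523. *ITGAV*, the alpha v chain shared by the vitronectin receptors, had 8705, 6619.8 and 5801 against 6656, 9919 and 8884, and the groups overlapped (log2 fold change 0.27, SE 0.203, adjusted p = 0.581). *ITGA4* and *ITGA9*, chains of receptors for VCAM1 and tenascin, had log2 fold changes of 0.16 and 0.66 with adjusted p-values of 0.725 and 0.72. *ITGA9* was low, with between 1.97 and 24.1 normalized counts, and fell below the floor in UE7T-9 Cont replicate 3.

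**Figure D2:**
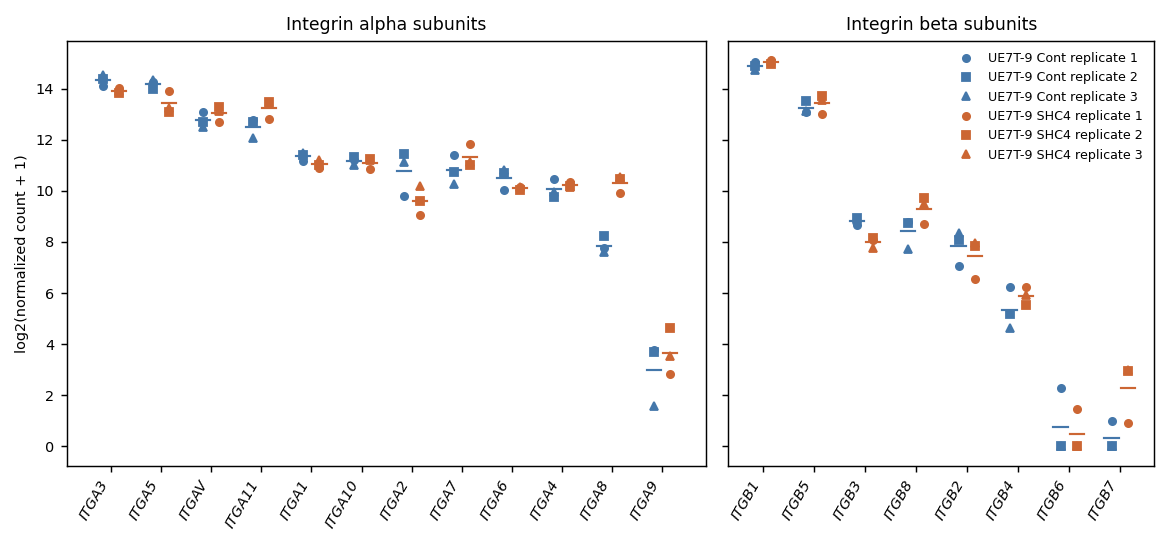
Level of each alpha and beta subunit in the 6 libraries as log2(normalized count + 1), ordered by the control mean, with 1 symbol per library and a line at the mean of each group. The 3 SHC4 libraries of ITGA8 (956 to 1499.9 normalized counts) stand clear of its controls (192 to 300.2), and those of ITGB3 (218 to 281) lie below its controls (401 to 485).

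Among the beta subunits, the common partner *ITGB1* had 33346, 30534 and 27219 normalized counts in the controls and 35615, 31995 and 34558 in UE7T-9 SHC4. Its groups overlapped, with a log2 fold change of 0.17 (SE 0.195, adjusted p = 0.739). *ITGB5*, a partner of alpha v, had 8742, 11604 and 8962 against 8255, 13279 and 12024, again with overlap (log2 fold change 0.18, SE 0.21, adjusted p = 0.744). The partner of alpha 8 was thus measured at a high level in every library.

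*ITGB3*, the beta 3 chain of the alpha v beta 3 vitronectin receptor, had 401, 485 and 460.4 normalized counts in the controls and 265, 281 and 218 in UE7T-9 SHC4. No SHC4 library reached the lowest control. The log2 fold change was -0.82 (SE 0.157). The limma adjusted p was 0.111, the DESeq2 adjusted p 0.00216 and the edgeR adjusted p 0.125. Without UE7T-9 Cont replicate 1 limma gave -0.90 with an adjusted p of 0.0161. With 1 library left out at a time, the log2 fold change ran from -0.90 to -0.71. A second gene model of GENCODE 29 on the same strand, AC068234.1, shares 51.6% of the exon bases of *ITGB3* and is not listed in the files, so how reads in that stretch were assigned is uncertain.

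*ITGB8*, a partner of alpha v that activates TGF-beta, had 445, 423 and 209 normalized counts in the controls and 418, 848 and 707 in UE7T-9 SHC4, where replicate 1 lay among the controls (log2 fold change 0.89, SE 0.329, adjusted p = 0.276). *ITGB7*, a beta chain of lymphocytes, stood at 0.975, 0 and 0 against 0.879, 6.66 and 6.99. Only 2 libraries exceeded the floor of 3 reads, and 42.1% of its exon bases are also exon of *ZNF740* on the other strand. Its limma log2 fold change was 1.95 (SE 0.76, unadjusted p = 0.0296, adjusted p = 0.293). The hemidesmosome chain *ITGB4* and the leukocyte chain *ITGB2* had log2 fold changes of 0.54 and -0.37, with adjusted p-values of 0.601 and 0.728.

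Levels of different genes were compared as normalized counts per kb of merged exons. In the controls the alpha chains ran in the order *ITGA5*, *ITGA3*, *ITGAV*, *ITGA11*, *ITGA10*, *ITGA7*, *ITGA2*, *ITGA6*, *ITGA1*, *ITGA4*, *ITGA8* and *ITGA9*. The ranges of *ITGA5* and *ITGA3* overlapped, as did those of each neighbouring pair from *ITGA11* to *ITGA6* and those of *ITGA1* and *ITGA4*, so their order is not settled by 3 libraries, and by the length of the longest transcript *ITGA3* and *ITGA5* swap places in the controls. *ITGA8* was 11th of 12 in UE7T-9 Cont, with 31.3 ± 7.57 (SD, n = 3) normalized counts per kb, and 7th of 12 in UE7T-9 SHC4, with 171 ± 38.8. Its range there overlapped that of *ITGA6*, and by the longest transcript it was 11th and 10th, so the place in UE7T-9 SHC4 depends on the length used.

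*ITGA8* made up 0.42% ± 0.111 (SD, n = 3) of the alpha subunit RNA per kb in the controls and 2.65% ± 0.659 in UE7T-9 SHC4, without overlap. *ITGA11* made up 7.29% ± 1.89 and 14.0% ± 3.63, also without overlap. The shares of *ITGA5* were 33.0% ± 3.37 and 22.9% ± 6.52, and those of *ITGA2* were 3.33% ± 1.68 and 1.62% ± 0.65, both with overlap. Over the 20 shares compared, the smallest exact two-sided permutation p was 0.1, the lowest that 3 against 3 allows (0.545 after Benjamini-Hochberg adjustment).

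**Figure D3:**
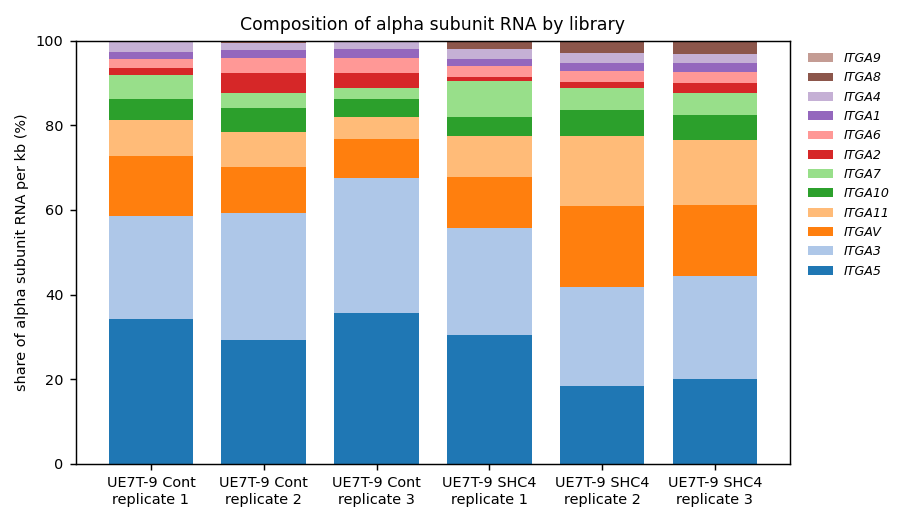
Share of each of the 12 alpha subunits in the alpha subunit RNA of each library, in percent of normalized counts per kb of merged exons. ITGA3 takes 23.3% to 32.0% of a bar and ITGA5 18.4% to 35.6%, just under ITGAV (19.1%) in UE7T-9 SHC4 replicate 2, and ITGA8 goes from 0.42% on average in the controls to 2.65% in UE7T-9 SHC4.

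Of the beta subunit RNA per kb, *ITGB1* held 75.0% ± 3.39 in the controls and 75.2% ± 5.29 in UE7T-9 SHC4, and *ITGB5* held 22.5% ± 3.15 and 22.9% ± 4.99. *ITGB3* held 1.53% ± 0.217 and 0.77% ± 0.114, without overlap between the groups. It ranked 3rd in the controls, whereas in UE7T-9 SHC4 its range overlapped that of *ITGB8*, which came before it by the longest transcript. The summed alpha level per kb was 7471, 7319 and 7643 in the controls and 6715, 6318 and 6457 in UE7T-9 SHC4, and the summed beta level was 7056, 7063 and 6088 against 7319, 7544 and 7758. The ratio of alpha to beta RNA was therefore 1.06, 1.04 and 1.26 in the controls and 0.918, 0.837 and 0.832 in UE7T-9 SHC4. By the longest transcript it was 1.00, 0.987 and 1.22 against 0.867, 0.757 and 0.758. This ratio was looked at after the values had been seen, and it is given as a description.

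No adaptor was called by limma, DESeq2 or edgeR. Of the 22, 14 had a log2 fold change above 0 and 8 below, with a median of 0.15, a lowest adjusted p of 0.197 and 4 genes at an unadjusted p under 0.05 (18.2%, against 14.4% of all genes), all higher (background 7.47%). Among talins and actin linkers the tensins, which bind beta tails and actin at mature fibrillar adhesions, had 3 of these 4. *TNS2* had 3096, 2213 and 2295 normalized counts in the controls and 3899, 3442 and 3514 in UE7T-9 SHC4, without overlap (log2 fold change 0.53, SE 0.153, adjusted p = 0.197). *TNS1* had 2850.3, 1501 and 1179 against 3024, 2828 and 2464, and *TNS3* had 4749, 3350.5 and 2657 against 4233, 5519 and 5078. In both of these, UE7T-9 Cont replicate 1 lay within the range of the SHC4 libraries while the other 2 controls lay below it. The log2 fold changes were 0.69 (SE 0.278, adjusted p = 0.307) and 0.50 (SE 0.21, adjusted p = 0.326).

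The 5 most abundant adaptors per kb of merged exons, by the mean over all 6 libraries, had overlapping groups. Filamin A (*FLNA*), which crosslinks actin, led both groups, with 97208, 57794 and 62030.5 normalized counts in the controls and 103121, 101016 and 77771 in UE7T-9 SHC4. Caveolin (*CAV1*) had 17991, 12260.0 and 13725 against 18491, 10812 and 10825, and alpha-actinin 4 (*ACTN4*) had 23033, 16176 and 17132 against 24502, 19896 and 17532. The talin gene *TLN1* had 19240.4, 13437 and 13884 against 20239, 16771 and 14766, and zyxin (*ZYX*), which follows tension on actin, had 8171, 5239 and 5142 against 8532, 6892 and 5946. In all 5 genes replicate 1 was the highest library of each group. Their log2 fold changes lay between -0.16 and 0.41, with limma adjusted p-values of 0.591 to 0.806. The 5th place is not settled, since in the controls alone *ACTN1* ranked 5th and *TLN1* 6th. By the longest transcript *ACTN1* was 3rd in the controls and 4th in UE7T-9 SHC4, and *TLN1* was 6th in both.

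In the complex around ILK, 5 of 6 genes had a log2 fold change above 0 (49.7% of all genes tested did), with *FERMT2* at only 0.0035. At an unadjusted limma p under 0.05 there was 1 of the 6 (16.7%, background 14.4%). *LIMS2*, which encodes PINCH2, had 348, 142 and 246 normalized counts in the controls and 700.5, 429.5 and 339 in UE7T-9 SHC4. UE7T-9 Cont replicate 1 was a little above the lowest SHC4 library (log2 fold change 1.02, SE 0.344, adjusted p = 0.242). Its paralog *LIMS1*, for PINCH1, had 3673, 4043 and 4046 against 2942, 3478 and 3534, lower without overlap (log2 fold change -0.24, SE 0.128, adjusted p = 0.423), and 24.2% of the 25-base words of its longest transcript occur in other genes, most of them in *LIMS3*. Kindlin 2 (*FERMT2*) had nearly the same mean in both groups, 3938 ± 966 and 3945 ± 947 (SD, n = 3). *ILK* had only 70.6 to 132 normalized counts, and 68.1% of its exon bases are also exon of *TAF10* on the other strand, so its level is uncertain.

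The kinases and scaffolds had no member at an unadjusted p under 0.05. *PTK2* (FAK), *PXN* (paxillin), *BCAR1* (p130Cas), *PTK2B* and *CAV1* had log2 fold changes of -0.26 to -0.15, and *SRC* and *ZYX* of 0.07 and 0.22. The lowest adjusted p in this group was 0.466.

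Within both groups most adaptors stood highest in replicate 1. The median deviation of the 22 from each gene's own mean was 0.22, -0.26 and -0.164 on the log2 scale in the controls and 0.219, 0.041 and -0.093 in UE7T-9 SHC4. Replicate 1 was the highest library of both groups in 17 of the 22 adaptors (77.3%), against 18.4% of all genes tested, 16.7% of the alpha chains and 28.6% of the beta chains. It was the lowest of both groups in 2 of the 22, *LIMS1* and *PTK2B* (9.09%, against 19.9% of all genes tested). UE7T-9 Cont replicate 1 was the highest control in 18 of 22 (81.8% against 36.1%). Nothing in the labels says what the first libraries share, and their part in the adaptor values was not tested.

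**Figure D4:**
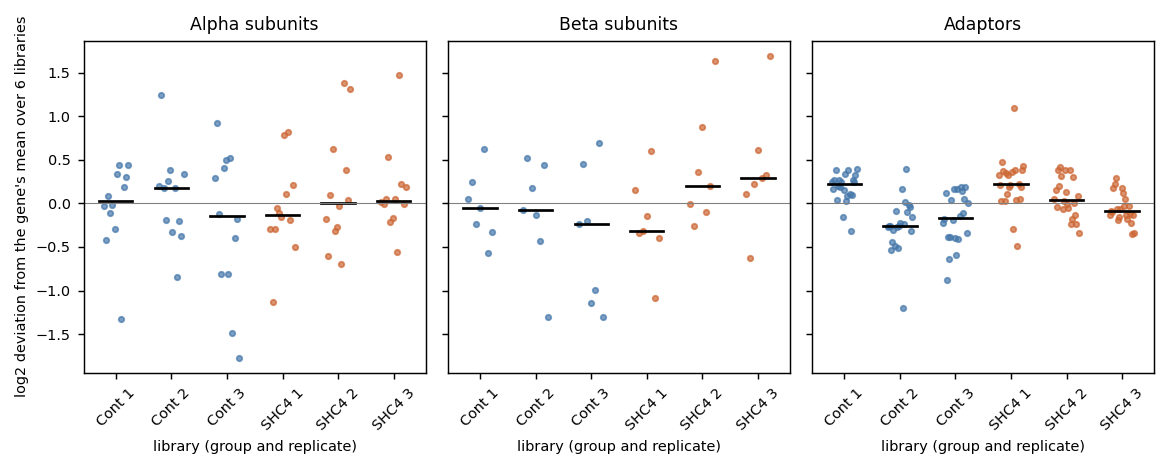
Log2 deviation of each tested member from its own mean over the 6 libraries, by class, with 1 point per gene and a black line at the class median. The adaptor medians are 0.22 in UE7T-9 Cont replicate 1 and 0.219 in UE7T-9 SHC4 replicate 1, above the other 4 libraries, while the alpha medians of the same pair are 0.029 and -0.135.

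With UE7T-9 Cont replicate 1 left out, the members at a limma adjusted p under 0.05 went from 1 to 8 of 41, while the background went from 0.0651% to 5.68%. Of the 8, *ITGA8*, *TNS1*, *TNS2*, *TNS3* and *LIMS2* were higher in UE7T-9 SHC4 and *ITGA2*, *ITGA6* and *ITGB3* were lower. *ITGA8*, *ITGA2*, *TNS1* and *LIMS2* also passed a log2 fold change of 1 there, 4 members against a background of 3.06%. With all 6 libraries, DESeq2 had 1 member higher (*ITGA8*, background 2.06%) and 2 lower (*ITGA2* and *ITGB3*, background 2.08%) at an adjusted p under 0.05, of 40 with a value, against 4.14% of all genes. *ITGA8* and *ITGA2* passed the log2 fold change of 1 as well (background 2.2%).

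Other genes of the adhesion system were taken from 5 lists, and of the 103 tested 0 passed the limma rule. At an unadjusted p under 0.05 limma had 24 (23.3%, background 14.4%), and DESeq2 had 5 higher (background 2.06%) and 4 lower (background 2.08%) at an adjusted p under 0.05. Of the 6 integrin subunits outside the members, 4 were tested and all had limma log2 fold changes below 0, as did 11600 of all 23040 genes tested. *ITGAE*, *ITGAM* and *ITGA2B* were close to 0, at -0.20, -0.16 and -0.11 (limma adjusted p = 0.64, 0.907 and 0.948). For *ITGAM* and *ITGA2B* DESeq2 gave 0.051 and 0.0079, so their direction is not settled. *ITGAX*, the alpha X chain of myeloid cells, had 77.0, 671 and 1164 normalized counts in the controls and 6.15, 5.83 and 17.5 in UE7T-9 SHC4, with every SHC4 library below every control (log2 fold change -5.35, SE 0.872, limma adjusted p = 0.0812, DESeq2 adjusted p = 1.09e-05). The 5 leukocyte markers in the files summed to 147 to 165 normalized counts in the controls and 124 to 158 in UE7T-9 SHC4. Of these, *PTPRC* was at 6.82 or less in every library. *ITGAM*, also an integrin chain, had 21.4, 22.4 and 24.6 in the controls and 14.9, 42.5 and 12.8 in UE7T-9 SHC4. The part of leukocytes in the *ITGAX* value was not tested.

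Of 20 integrin activators and inhibitors, 14 had a log2 fold change above 0, and DESeq2 had 2 higher and 1 lower. *APBB1IP*, which encodes RIAM, the adaptor that brings talin to the membrane with RAP1, had 45.8, 67.1 and 33.4 against 157, 236 and 259.7 normalized counts, without overlap (log2 fold change 2.16, SE 0.303, limma adjusted p = 0.0549, DESeq2 adjusted p = 9.31e-08). The tetraspanins *CD9* and *CD82*, membrane partners of integrins, had log2 fold changes of 1.12 (limma adjusted p = 0.155, DESeq2 adjusted p = 0.0121) and -0.58 (limma adjusted p = 0.116, DESeq2 adjusted p = 0.00208).

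Of 44 other focal adhesion genes tested, 25 had log2 fold changes above 0, and *FHL1*, a LIM protein of the actin cytoskeleton, was the one that DESeq2 called (log2 fold change 1.35, limma adjusted p = 0.17, DESeq2 adjusted p = 0.00957). Of 29 ligands, 15 were above 0 and 14 below. Osteopontin (*SPP1*), an RGD ligand of bone, had 1040.1, 10458 and 17769 normalized counts in the controls and 349.8, 708 and 943 in UE7T-9 SHC4. No overlap was seen, though UE7T-9 Cont replicate 1 was close to the SHC4 libraries and far from the other controls (log2 fold change -3.23, SE 0.88, limma adjusted p = 0.187, DESeq2 adjusted p = 0.00959). The RGD protein *MFGE8* had a log2 fold change of 0.81, with a DESeq2 adjusted p of 0.00108 and a limma one of 0.148.

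Among 6 caveolae partners of *CAV1* tested, *CAVIN3* had a log2 fold change of 0.75 (limma adjusted p = 0.116, DESeq2 adjusted p = 0.00342). Summed endothelial markers were 58.0 to 78.9 normalized counts in the controls and 49.2 to 96.7 in UE7T-9 SHC4, and epithelial markers 17.7 to 41.9 and 10.8 to 43.9. Summed smooth muscle markers were 4293 to 9275 and 7326 to 13450, and the 6 markers did not go one way, with 3 log2 fold changes above 0 and 3 below. *CNN1* had -1.44 (limma adjusted p = 0.122, DESeq2 adjusted p = 0.000867), while *LMOD1* had 1.02 without overlap (limma adjusted p = 0.224, DESeq2 adjusted p = 0.0923) and *TAGLN* had 0.83 with overlap (limma adjusted p = 0.331, DESeq2 adjusted p = 0.213). Like these genes, *ITGA8* is known from smooth muscle, and the part of such cells in the *ITGA8* value was not tested. In bulk RNA, more cells with a transcript and more transcript per cell cannot be told apart, which applies to *ITGA8* as well.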

How the data were processed

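Total RNA of UE7T-9 Cont (n = 3) and UE7T-9 SHC4 (n = 3) was prepared with DNase I, made into libraries with NEBNext Ultra RNA and sequenced. Per the labels, the authors used HISAT2 2.0.5, featureCounts 1.5.0-p3 and DESeq2; the genome build, annotation and strand setting are not given in the sources used here. The deposited values are a signal, gene counts divided by 1 size factor per library, and 100% of them were whole multiples of that factor's step (tolerance 0.01), so whole reads were recovered. Ensembl identifiers were matched to symbols (100% of 28181), and positions and lengths come from GENCODE annotation on GRCh38.

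Values were tested with limma 3.58.1 (R 4.3.3) on log2(value + 1) with a mean-variance trend, for genes with a mean of at least 1 (5141 fell below), with Benjamini-Hochberg adjustment over all 23040. A call needed an adjusted p under 0.05 and an absolute log2 fold change over 1. Fold changes on this scale understate those of low genes. DESeq2 1.42.0 and edgeR 4.0.16 (quasi-likelihood) ran on recovered reads as alternatives, as did limma-voom, another pseudocount, other filters and scalings, a replicate block and leaving out each library. The limma code was tested on simulated data.

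The members and lists were chosen with earlier results of these data known. A member is given with all its values when its limma p was under 0.05 unadjusted, its DESeq2 adjusted p was under 0.05, its groups did not overlap, or it was among the 3 highest alpha, 3 highest beta or 5 highest adaptor genes per kb. Of the other lists, genes with a DESeq2 adjusted p under 0.05 are named, and 1 list and 1 gene are not reported here. Replicates are called biological in the labels, without saying whether they came from separate cultures. The p-values therefore set the group difference against the spread between these libraries, which may be technical.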

Additional observations from a re-analysis of the deposited data

How the results depend on the processing

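*ITGA8* kept its direction in every alternative run, with log2 fold changes of 2.31 to 2.65 when 1 library was left out, and the called members numbered 0 to 4 in those fits (4 without UE7T-9 Cont replicate 1). Members with a DESeq2 adjusted p under 0.05 numbered 1 to 15 (15 without UE7T-9 Cont replicate 1, beside 14% of all genes, and 5 without UE7T-9 SHC4 replicate 1, beside 5.29%), and genes called in all 1 to 367 higher and 0 to 339 lower, the highest again without UE7T-9 Cont replicate 1. With DESeq2 on all libraries 2 members (*ITGA8* and *ITGA2*) and 170 higher and 185 lower genes passed both thresholds. DESeq2 gave log2 fold changes of -1.25 for *ITGA2* and -0.81 for *ITGB3*, and in its main fit both passed an adjusted p of 0.05. That fit had 3 members at this threshold, beside 4.14% of all genes. With DESeq2's independent filtering and Cook's cutoff off there were 2, beside 1.74%. Without UE7T-9 Cont replicate 2 there was 1, beside 1.27%. Genes called were 31 higher and 9 lower with no filter, 22 and 6 with library size scaling, and 20 and 4 with TMM scaling; 1 was lower with a pseudocount of 0.1, with edgeR and with voom. Library size scaling shifted the median of all genes to -0.1033 and turned the median of the alpha chains to -0.0717, *FERMT2* to -0.0997 and *SRC* to -0.0300, values that lie above that shift. With 1 library left out, the median log2 fold change of the alpha chains ran from -0.116 to 0.136, that of the beta chains from 0.107 to 0.368 and that of the adaptors from 0.0508 to 0.306. Directions turned in some of these fits for *VCL* (-0.234 to 0.0281), *FERMT2* (-0.185 to 0.196), *PTK2B* (-0.343 to 0.0621), *ITGA9* (-0.0536 to 1.08), *ITGA10* (-0.179 to 0.029), *ITGB2* (-0.753 to 0.0759) and *SRC* (-0.0212 to 0.153). By longest transcript the share of *ITGA8* differed by 1.75 percentage points and that of *ITGB3* differed by -0.536, against 2.23 and -0.755 by merged exons. Leaving out 1 library, these differences ran from 2.01 to 2.61 and from -0.872 to -0.657, and those of *ITGA11* and *ITGA5* from 5.32 to 8.74 and from -13.8 to -7.85. The cause was not tested for any of these.

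The replicate numbers were not taken as a pairing: deviations of same-numbered libraries correlated at 0.148, 0.013 and -0.00696 over 23040 genes, above 0.1 for replicate 1 alone. With a replicate block, limma called 25 genes higher and 14 lower and again 1 member, and DESeq2 had 8 members at an adjusted p under 0.05, beside 5.22% of all genes (3 members and 4.14% without the block). Near the floor of 3 reads, *ITGB6* and *ITGB7* were too shallow for a difference to be seen. *ITGA9* was low too, with 2 to 29 reads per library and overlapping groups.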
